A study of Mus musculus with 20 samples.

Results

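Open chromatin of mouse tail epidermal cells after culture was compared with that of cells taken fresh from vehicle-treated skin. The comparison uses 4 of the 20 ATAC-seq libraries of the study: 2 of cultured cells from the control region, which the labels also call non-memory and date to 8 weeks after a first wound, and 2 of vehicle-treated epidermis, whose titles carry week 0. ATAC-seq maps open chromatin by letting the Tn5 transposase insert sequencing adapters into accessible DNA. All groups share the genotype Lrig1CreER/Rosa-TdTomato and the same sorted cells, called Lrig1 GL and Sca1+. In such mice an inducible Cre under control of Lrig1 switches on a red fluorescent protein in Lrig1-expressing cells and their descendants, and the submitters sorted for Sca1 to enrich the upper hair follicle. Age, sex, the length and conditions of culture, the agent behind the vehicle and the number of animals are not given in the labels.

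The authors deposited 1 list of peaks per group, made from both of its libraries. Overlapping peaks of a list were merged into regions, which gave 54188 regions in the cultured control list and 70008 in the vehicle list. Over the series the 10 lists held between 34644 and 73340 regions, and the depth of the libraries behind them is not known. Both lists together covered 86289 merged regions, of 101406 over all 10 lists of the series. A region was called gained if it was in the cultured control list and no region of the vehicle list overlapped it by 1 bp, lost if the reverse held, and shared otherwise. The replicates are combined in the lists, so the values have no error between replicates, and no difference was tested. Intervals are Wilson 95% intervals and cover counting error only. Culture, the earlier wound, the region of skin, the sex of the animals, the sequencing depth and any batch differ together between both groups or are not recorded, so their parts cannot be told apart. In bulk samples fewer cells of a type and less open chromatin per cell cannot be told apart either.

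The upper hair follicle holds stem cells that express Lrig1 and that feed the infundibulum and the sebaceous gland. In skin, basal keratinocytes attach to a basement membrane and divide, while suprabasal cells switch to other keratins, cross-link a cornified envelope with transglutaminases and shed through kallikrein proteases. Keratinocytes placed in culture grow on a matrix under a supply of growth factors, and are known to express migration and matrix-remodelling genes that intact epidermis uses mainly at wounds.

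The 5 sequences that follow overlapped a region of the cultured control list and none of the vehicle list. They were chosen after their values were seen, as examples of matrix proteases, simple epithelial keratins and a cell cycle inhibitor, and do not stand for all promoters that differed. Each shows the 250 bases before the transcription start, from RefSeq on GRCm38.p6, read from 5′ to 3′ on the strand of the gene, and capitals mark matches to TGANTCA, a letter pattern bound by AP-1 transcription factors. The pattern is the same on both strands. Mmp13 encodes a collagenase and its window is chr9:7272264-7272513 on the plus strand. Mmp10 encodes a stromelysin and its window is chr9:7502092-7502341 on the plus strand. Krt8 and Krt18 encode the keratin pair of simple epithelia, with windows at chr15:102004343-102004592 on the minus strand and chr15:102027966-102028215 on the plus strand. Cdkn2a encodes cyclin-dependent kinase inhibitor and p53 pathway proteins from separate starts, and the window shown is that of the downstream start, chr4:89282193-89282442 on the minus strand.
Mmp13: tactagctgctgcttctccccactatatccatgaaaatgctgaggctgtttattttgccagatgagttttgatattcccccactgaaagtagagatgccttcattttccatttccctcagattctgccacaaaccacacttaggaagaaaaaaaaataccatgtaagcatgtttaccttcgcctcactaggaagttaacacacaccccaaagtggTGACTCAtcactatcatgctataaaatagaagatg
Mmp10: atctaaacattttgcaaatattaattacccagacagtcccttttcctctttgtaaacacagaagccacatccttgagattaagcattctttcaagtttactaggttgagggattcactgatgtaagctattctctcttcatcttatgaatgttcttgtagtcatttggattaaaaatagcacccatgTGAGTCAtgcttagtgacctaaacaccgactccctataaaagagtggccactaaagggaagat
Krt8: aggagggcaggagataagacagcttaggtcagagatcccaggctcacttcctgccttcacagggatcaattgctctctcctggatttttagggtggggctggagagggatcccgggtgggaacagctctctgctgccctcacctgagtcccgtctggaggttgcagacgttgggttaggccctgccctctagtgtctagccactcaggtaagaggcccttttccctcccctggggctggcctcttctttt
Krt18: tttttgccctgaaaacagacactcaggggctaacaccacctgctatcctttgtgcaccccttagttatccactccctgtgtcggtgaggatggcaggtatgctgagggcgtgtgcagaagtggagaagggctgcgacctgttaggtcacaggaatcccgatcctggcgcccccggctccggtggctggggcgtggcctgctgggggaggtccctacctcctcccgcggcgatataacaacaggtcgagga
Cdkn2a: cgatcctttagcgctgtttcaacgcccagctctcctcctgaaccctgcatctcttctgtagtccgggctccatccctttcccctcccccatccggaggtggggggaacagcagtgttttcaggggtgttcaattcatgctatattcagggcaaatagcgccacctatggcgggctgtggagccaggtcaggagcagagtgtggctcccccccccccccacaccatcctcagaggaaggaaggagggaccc

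Of these 5, the Mmp13 promoter had the highest signal value, a number the authors give each peak. It was 13.2 in the cultured control list, and the vehicle list had no region there. The AP-1 pattern of Mmp13 starts 35 bases before the transcription start, and that of Mmp10 starts 63 bases before it. Mmp10 had a signal value of 7.73 in the cultured control list and no region in any other list. Krt8 had 5.08 and Krt18 7.38 in the cultured control list, against no region in the vehicle list. The Krt8 region was among the weakest of the cultured control list, those with signal values up to 5.20. Of these weakest regions 45.2% were gained, so a missing counterpart at Krt8 was common for its strength. The Krt8, Krt18 and Cdkn2a windows hold no match to TGANTCA, which says only that these letters are not in them. Cdkn2a had a signal value of 8.53 at the downstream start in the cultured control list and none in the vehicle list. The upstream start of Cdkn2a, 12.4 kb away and known to give rise to the Arf protein, lay under a shared region with a signal value of 13.7 in the cultured control list and 10.7 in the vehicle list. The downstream start is the one known to give the Ink4a protein.

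The second list of cultured cells, from the distal memory region, held 4 of the 5 windows, with signal values of 10.5 at Mmp13, 4.99 at Krt8, 6.03 at Krt18 and 8.88 at Cdkn2a. Of the 7 other uncultured lists, none held the Mmp10, Krt8 or downstream Cdkn2a window. The Mmp13 window was also in the UVB list (9.90) and the wound and UVB list (10.1), and the Krt18 window in the wound and UVB list (8.00). Signal values are the authors' and are set side by side here without a comparison of size between lists.

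The reverse group is shown by 4 promoters that lay under a region of the vehicle list and under none of the cultured control list. Krt10 encodes the suprabasal keratin 10, Tgm3 a transglutaminase of the cornified envelope and Klk5 a kallikrein protease of desquamation. Lgr6 encodes a receptor that marks stem cells of the upper follicle. Their windows are chr11:99389365-99389614 on the minus strand for Krt10, chr2:130012090-130012339 on the plus strand for Tgm3, chr7:43842019-43842268 on the plus strand for Klk5 and chr1:135105277-135105526 on the minus strand for Lgr6. None of the 4 holds a match to TGANTCA.
Krt10: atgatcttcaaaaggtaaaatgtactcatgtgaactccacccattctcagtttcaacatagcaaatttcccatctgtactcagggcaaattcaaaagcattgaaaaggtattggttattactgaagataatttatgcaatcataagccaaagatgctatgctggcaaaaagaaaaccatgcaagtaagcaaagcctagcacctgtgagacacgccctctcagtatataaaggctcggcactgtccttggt
Tgm3: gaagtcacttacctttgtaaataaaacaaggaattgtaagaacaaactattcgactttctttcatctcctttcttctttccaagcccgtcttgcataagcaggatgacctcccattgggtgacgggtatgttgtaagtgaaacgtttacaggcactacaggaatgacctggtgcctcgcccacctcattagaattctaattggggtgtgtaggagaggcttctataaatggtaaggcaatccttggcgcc
Klk5: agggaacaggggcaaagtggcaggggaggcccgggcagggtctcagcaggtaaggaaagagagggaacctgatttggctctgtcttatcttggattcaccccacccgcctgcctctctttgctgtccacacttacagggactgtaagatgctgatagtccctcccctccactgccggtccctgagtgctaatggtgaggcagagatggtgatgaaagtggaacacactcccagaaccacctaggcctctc
Lgr6: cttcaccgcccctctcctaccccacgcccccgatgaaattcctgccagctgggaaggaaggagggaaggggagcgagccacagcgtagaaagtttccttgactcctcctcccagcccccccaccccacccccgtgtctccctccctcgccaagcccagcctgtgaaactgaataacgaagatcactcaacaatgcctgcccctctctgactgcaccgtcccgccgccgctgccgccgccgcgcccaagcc

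In the vehicle list the signal values at these windows were 4.87 for Krt10, 11.1 for Tgm3, 18.2 for Klk5 and 8.998 for Lgr6, and neither list of cultured cells had a region at any of them. The Krt10 region was among the weakest of the vehicle list, those with signal values up to 4.94. Of these weakest regions 67.3% were lost, so a missing counterpart at Krt10 was the usual case for its strength. Klk5 had a region in all 8 uncultured lists, with signal values between 13.3 and 19.8. Lgr6 had one in 7 of these 8 lists and lacked it in homeostasis. Tgm3 had one in 6, lacking it 1 week after the second wound and 8 weeks after the first. Krt10 had one in 3, vehicle, PRT4165 and UVB.

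The surroundings of 4 of these genes differed over more than the promoter. Within 50 kb of the start given in the promoter table, Mmp13 had 6 gained regions, 1 lost region and no shared region, with signal values from 4.99 to 15.6 for the gained ones. Cdkn2a had 6 gained regions with signal values from 5.84 to 24.5, 1 lost region and 2 shared clusters. Tgm3 had 16 lost regions with signal values from 3.38 to 12.1, 4 shared clusters and no gained region. A shared region 17.7 kb from the start of Tgm3 had a signal value of 18.6 in the cultured control list and 6.87 in the vehicle list, a rank 74.1 points higher in culture. Klk5 had 12 lost regions, 8 shared clusters and no gained region.

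**Figure D1:**
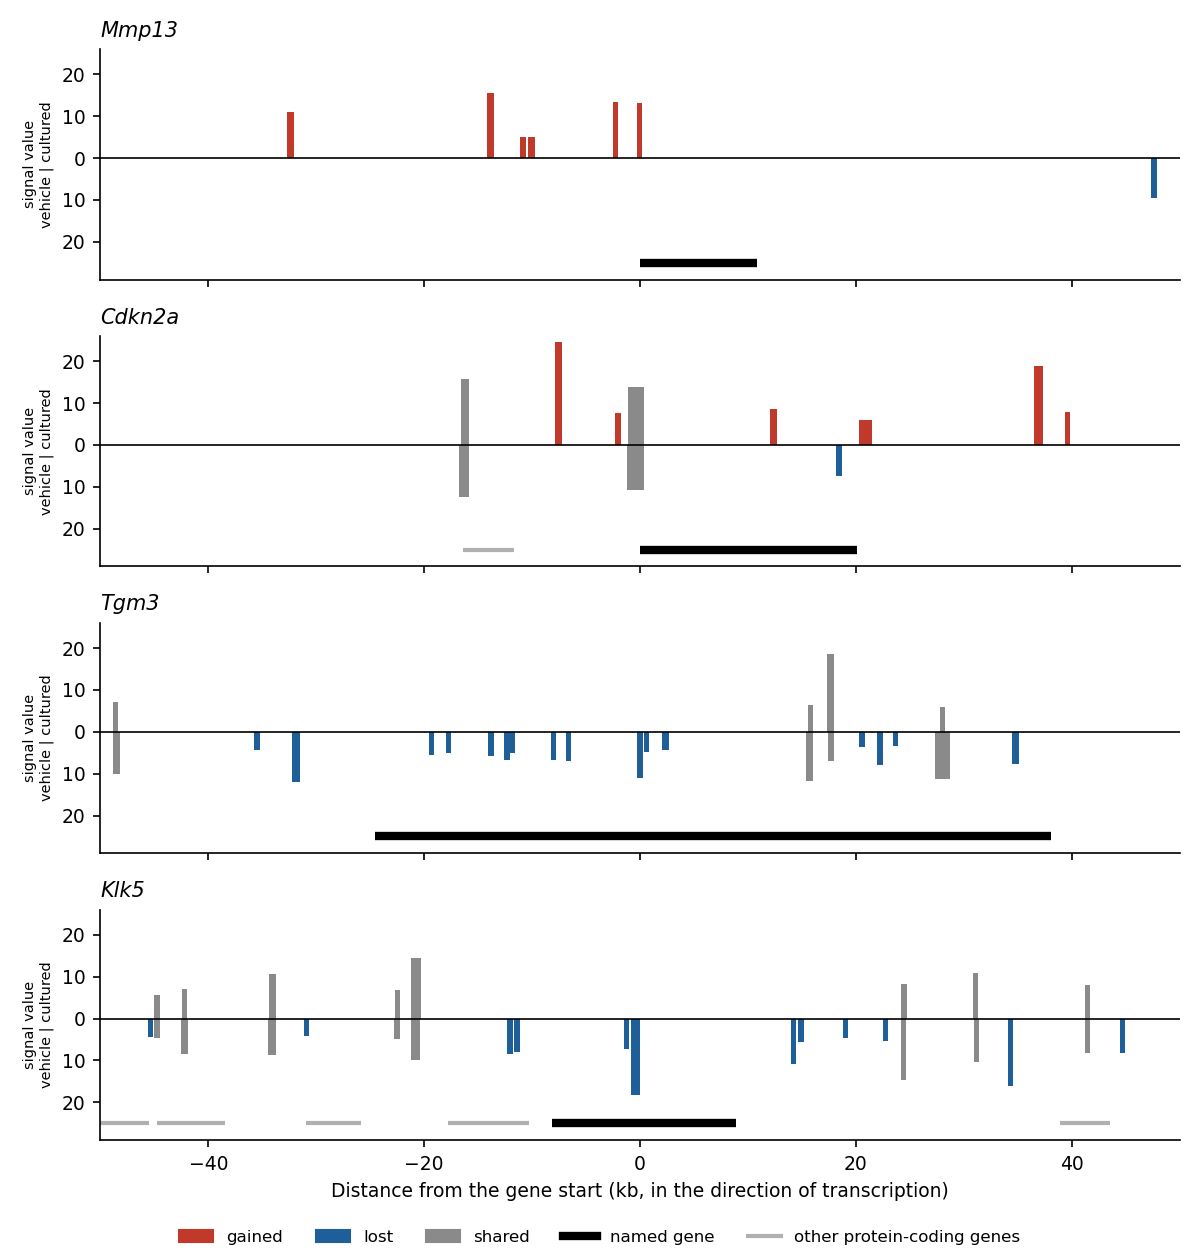
Regions within 50 kb of 4 gene starts; the vertical axis is the authors' signal value, upward for the cultured control list and downward for the vehicle list, and the horizontal axis is the distance from the start in kb. Bars are regions, drawn at least 0.5 kb wide, and the black line is the gene, which for Tgm3 and Klk5 reaches upstream of that start; 6 gained regions each stand at Mmp13 and Cdkn2a, and 16 and 12 lost regions at Tgm3 and Klk5.

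Over all promoters, few windows differed. Of 21263 RefSeq windows, which run from 250 bases before to 50 bases after a start, 373 (1.75%) were gained and 849 (3.99%) lost, 10698 lay under a region of both lists and 9190 under a region of neither. The remaining 153 lay under a region of 1 list only, which overlaps a region of the other list outside the window. TGANTCA was found in 13.4% (10.3 to 17.2) of the gained windows, 6.95% (5.43 to 8.86) of the lost windows and 6.99% (6.65 to 7.34) of all windows. Among windows under a region of neither list the share was 9.18%, and among windows under both it was 4.94%. TGANTCA was 1 of 9 patterns searched on both strands, none of which contains another, and the one whose share in the gained windows stood most points above that of all windows. TATAAA, known as a core promoter element, was in 11.8% of the gained, 9.78% of the lost and 12.6% of all windows. CCGGAA, a pattern of ETS factors, was in 11.3% of the gained, 8.24% of the lost and 18.7% of all windows. CCAAT was in 38.1% of the gained, 29.0% of the lost and 38.2% of all. GGAATG, a TEAD pattern, was in 16.9% of the gained, 14.4% of the lost and 13.6% of all windows. TGTGGT, a RUNX pattern, was in 16.6% of the gained, 13.3% of the lost and 14.97% of all. The pattern of the Gata family of factors, searched as AGATAA, was in 8.31% of the gained, 7.07% of the lost and 9.65% of all. CACGTG, an E-box, was in 8.04% of the gained, 8.36% of the lost and 7.84% of all. GGGCGG, the GC box, was in 50.7% of the gained, 51.8% of the lost and 46.2% of all. A match is a description of the sequence, not a site.

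Across the genome the cultured control list held 16894 gained regions, which is 31.2% (30.8 to 31.6) of its regions. The vehicle list held 32664 lost regions, 46.7% (46.3 to 47.0) of its regions. The shared part was 37294 cultured control regions and 37344 vehicle regions, which form 36731 clusters of overlapping regions. Gained and lost regions lay mostly away from gene starts. The summit was within 1 kb of a start for 4.85% (4.54 to 5.19) of gained regions, 5.54% (5.30 to 5.80) of lost regions and 31.1% (30.7 to 31.6) of shared regions. It was over 100 kb from any protein-coding gene for 13.2% (12.7 to 13.7) of gained, 11.02% (10.7 to 11.4) of lost and 5.50% (5.28 to 5.74) of shared regions. Gained regions had a median width of 417 bp and lost regions 493 bp, against 620 and 654 bp for shared regions in the cultured control and vehicle lists.

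Weak regions were more often without a counterpart. Each list was cut into 10 equal parts by signal value. In the weakest part of the cultured control list by signal value 45.2% (43.8 to 46.5) were gained, and in its strongest part 18.9% (17.9 to 19.9). Of the vehicle list 67.3% (66.2 to 68.4) of the weakest part and 14.98% (14.2 to 15.8) of the strongest part were lost. In the cultured control list the share was lowest in the part next to the strongest, at 17.6%, and in the vehicle list it was lower in each stronger part.

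**Figure D2:**
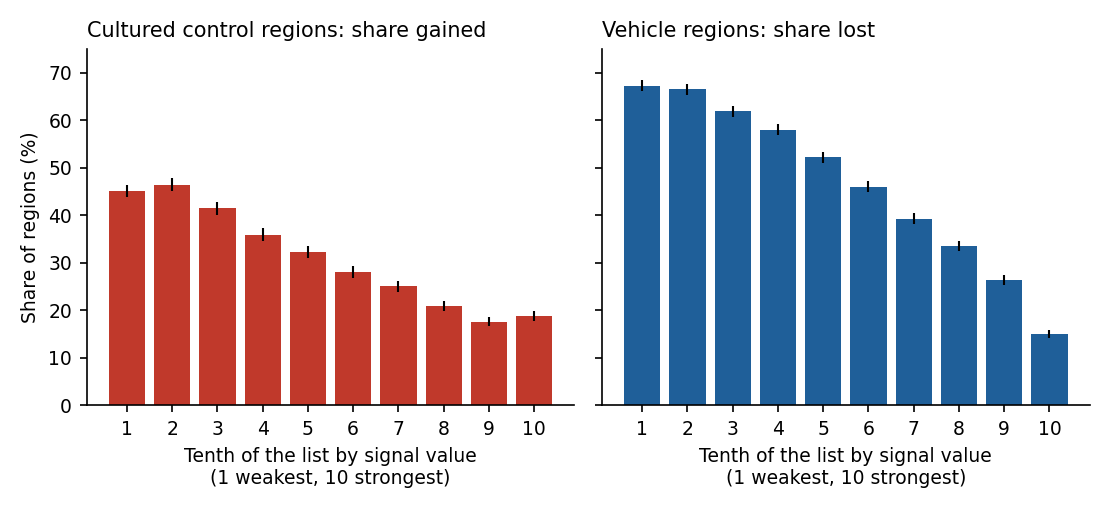
Share of regions without a counterpart, in 10 equal parts of each list in order of signal value, for gained regions of the cultured control list (left) and lost regions of the vehicle list (right). Bars are shares in percent and lines Wilson 95% intervals; the weakest parts stand at 45.2% and 67.3% and the strongest at 18.9% and 14.98%.

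The 8 lists that played no part in the classes separate gained from lost regions. The cultured distal list held 62.7% of gained regions, 5.26% of lost regions and 84.7% of shared regions. For the PRT4165 list, from skin treated with an inhibitor of the Polycomb complex PRC1, the shares were 10.9%, 77.9% and 93.3%. In the homeostasis list, a shorter list of 35195 regions, they were 0.917%, 28.6% and 67.9%. Of the gained regions 75.5% (74.9 to 76.2) were in no uncultured list, and 7942 (47.0%) were in none of these but in the cultured distal list. Of the lost regions 92.9% (92.6 to 93.2) were in at least 1 other uncultured list, and 5231 (16.01%) were in all 7 of them and not in the cultured distal list. The same was counted for the strongest regions of each class. Of the 1000 strongest gained regions 999 were also in the cultured distal list. In no uncultured list were 789 (78.9%), close to the 75.5% of all gained regions. Of the 1000 strongest lost regions 956 were absent from the cultured distal list, and 773 were in all 7 other uncultured lists. Both lists of cultured cells carry week 8 in their titles, as does the uncultured list 8 weeks after the first wound. That uncultured list held 0.971% of gained, 29.2% of lost and 65.9% of shared regions. The part of the week was not tested.

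**Figure D3:**
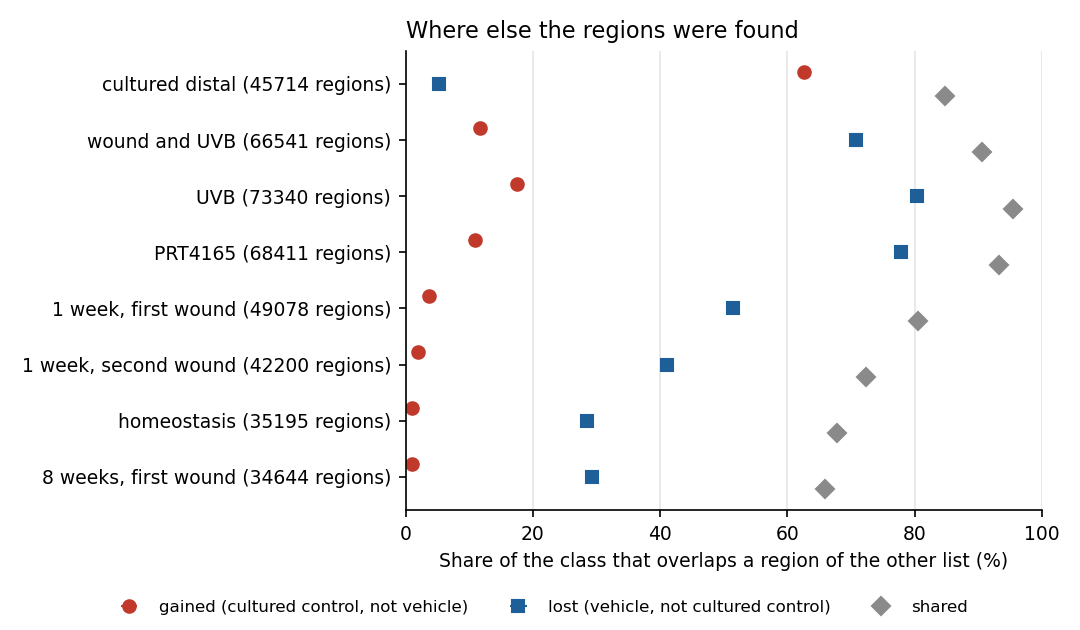
Share of gained (circles), lost (squares) and shared (diamonds) regions that overlap a region of each of the 8 other lists by at least 1 bp, in percent, with Wilson 95% intervals that are narrower than the symbols. Gained regions stand at 62.7% in the cultured distal list and at 17.5% or less in each uncultured list, and lost regions at 5.26% in the cultured distal list and between 28.6% and 80.4% in the uncultured lists.

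Shared regions kept much of their order near gene starts and less of it elsewhere. Within the shared clusters each list was ranked by signal value on a percentile scale on which 100 is the strongest, so that both ranks run over the same regions. Spearman's rho between both ranks was 0.669 over 36731 clusters, 0.838 over the 11356 within 1 kb of a gene start and 0.573 over the 25375 further away. These are correlations across regions, which share their libraries and are not independent, and they are given as a description. The rank was at least 25 points higher in the cultured control list for 4548 clusters (12.4%) and at least 25 points lower for 4559 (12.4%). Near gene starts 6.26% were higher and 5.77% lower by that margin, and away from them 15.1% and 15.4%.

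The 6 highest and 6 lowest rank differences are given for shared clusters within 1 kb of a start that ranked above 50 in either list, predicted gene models left out. Nppb, which encodes the natriuretic peptide BNP, stood at rank 91.5 in the cultured control list and 4.87 in the vehicle list, with signal values of 18.3 and 4.81. Ulbp1, a stress-induced ligand of the NKG2D receptor, stood at 99.1 and 24.1, and Il18, an epithelial cytokine of the interleukin-1 family, at 92.6 and 17.3. Khdrbs2, Cep112 and Atf7ip2 were the other 3 with higher ranks in culture, by 75.8, 73.5 and 73.2 points. Il1f8, a keratinocyte cytokine now called interleukin-36 beta, stood at 14.9 in the cultured control list and 94.0 in the vehicle list. Selenop, the plasma selenium carrier, stood at 5.88 and 82.6, and Cd302, a C-type lectin receptor, at 6.58 and 86.9. Rsph4a, Fam3b and Hmgcll1 were the other 3, with differences of -81.2, -73.1 and -70.8 points. When clusters were ranked by the authors' −log10 p instead, all 12 kept their direction, with differences from 65.2 to 99.1 points for the 6 higher and from -38.7 to -89.8 points for the 6 lower. Both measures belong to the same peaks and the 12 were chosen for large differences, so this is no separate evidence. The cultured distal list had no region at Rsph4a, Cd302, Il1f8 and Selenop, and one at each of the 6 genes with higher ranks.

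**Figure D4:**
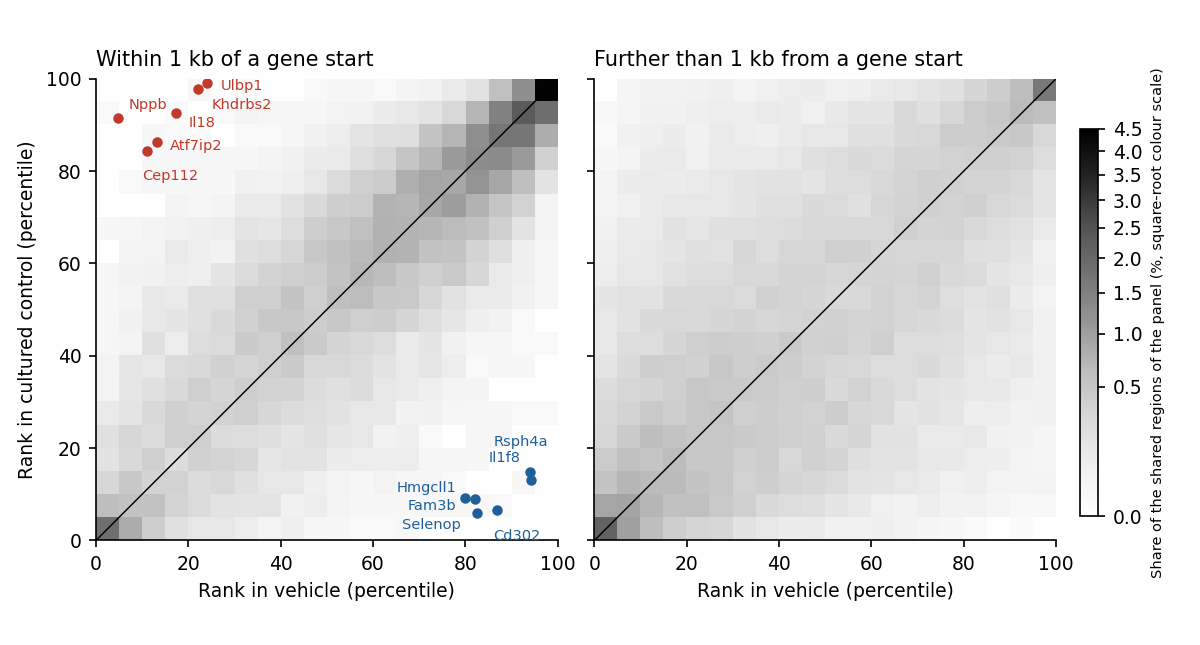
Ranks of the shared clusters in the cultured control list (vertical axis) and in the vehicle list (horizontal axis), as percentiles of the signal value, near gene starts (left) and away from them (right). Shades give the share of clusters per square, the line marks equal ranks and points mark the 12 named promoters; the cloud is tighter near gene starts, where rho is 0.838 against 0.573 elsewhere.

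Some genes stood out by the number of regions that differed. Regions were paired with the gene around the summit, taking the shortest where genes overlap, and otherwise with the gene whose end was nearest within 100 kb, so nearness is not evidence of control. Of 16381 genes with a region in either list 2440 had gained regions only, 4605 lost regions only, 4947 both and 4389 neither. Gained regions outnumbered lost ones at 3391 (20.7%) and lost ones gained ones at 7338 (44.8%), so a surplus of lost regions was the more common case. The largest surplus of gained regions was at BC107364 (12 gained, 1 lost) and Adamts16 (11 and 0), a secreted metalloprotease gene with no region at all in the vehicle list. Zfp608 had 15 gained and 5 lost regions, Kirrel3, a cell adhesion gene, 12 and 2, Zfp184 10 and 0, and Kcnq1, a potassium channel gene, 10 and 1. Sugct, Prkg2, Hlx and Gpx5 had 9 gained regions each and none lost. Hlx and Gpx5 had no region in the vehicle list.

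The largest surplus of lost regions was at Rad51b and Tiam1. Rad51b had 5 gained regions and 40 lost of 63 in the vehicle list. Tiam1, a Rac activator, had 5 and 33 of 53, and Macrod2 19 and 46 of 71. Such counts favour genes with many regions, and 46.7% of all vehicle regions were lost. Ntrk2, the receptor of brain-derived neurotrophic factor, had 1 gained and 28 lost regions, Foxn3 1 and 27, and Tenm2 3 and 28. Nfatc1, a transcription factor of hair follicle stem cell quiescence, had 25 lost regions and none gained, and 9 of the 25 were in all 8 uncultured lists and in neither cultured list. Zbtb7c had 3 and 27, Pard3, a polarity gene, 6 and 29, and Abcc4 1 and 24. With the homeostasis list in place of vehicle, Macrod2 had 15 more gained than lost regions and Pard3 7 more, and the surplus moved without turning at 10 of the other 18 genes. With both lists limited to the same number of regions it moved at 8 of the 20.

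The strongest differing regions reached signal values above 29. The gained region with the highest signal value, 33.2, lay at chr5:13667422-13667919, outside Sema3a, a guidance cue gene, and within 100 kb of its end. Near Frk, a tyrosine kinase gene, lay one of 32.0, inside Phex one of 31.5 and near Trim52 one of 30.3. The other 2 of the 6 strongest gained regions, at 30.4 and 30.0, lay over 100 kb from any coding gene, with Pcdh7 and Car10 the nearest. Among lost regions the strongest, 33.0, lay at chr14:110629615-110630203, over 100 kb from the nearest gene, Slitrk6. Negr1 had one of 32.2 and Slc8a1 one of 31.7, both inside the gene. The next were one of 30.6 in a stretch with no coding gene within 100 kb, one of 29.5 near Tek and one of 29.1 near Tnrc6a. Each of the 6 gained regions was also in the cultured distal list, and each of the 6 lost regions was in neither cultured list.

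Near gene starts the strongest gained regions were at Styk1, a receptor-like kinase gene, with a signal value of 27.4, and at the Y-linked Ddx3y with 23.3. BC024063 had 21.3, Krtap1-5, a hair keratin-associated protein gene, 20.5, Serpinb9c, a granzyme inhibitor family gene, 20.3 and Ifi203, an interferon-inducible gene, 20.1. All 6 were in the cultured distal list, and 4 of them, Styk1, Krtap1-5, Serpinb9c and Ifi203, were in no uncultured list. The strongest lost regions near a start were at Acer1, the alkaline ceramidase of the epidermis, with 26.5, Iqub with 24.4 and Aldh1a1, a retinaldehyde dehydrogenase gene, with 24.0. Zc3h12c had 23.5, Spag9 22.2 and Stx19 22.01. Acer1, Iqub and Spag9 were in all 8 uncultured lists and in neither cultured list.

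Gene lists written for this work order the differences by role, and each is read against the shares of all regions, 31.2% gained and 46.7% lost. Counts of members with a surplus are set beside those of all genes with a region, 44.8% lost and 20.7% gained. Of these 16381 genes 4389 had neither gained nor lost regions. In the TGF-beta list 17 of 23 members had more lost than gained regions, although its lost share was 44.1%. Such a count alone does not set a list apart. The labelled cells were first checked by their own markers. The strongest region at either end of Lrig1 had a signal value of 16.6 in the cultured control list and 12.9 in the vehicle list, and the gene had 8 gained and 3 lost regions. Ly6a, which encodes Sca1, had weak regions at its ends, with 3.78 in the cultured control list and 4.56 in the vehicle list. Krt14, a basal keratin gene, had regions at its ends with signal values of 5 in the cultured control list and 5.14 in the vehicle list. Krt5, its partner, had 4.58 in the cultured control list and 6.76 in the vehicle list on the same measure. By promoter window, Krt14 lay under a region of neither list, and Krt5 under a region of all 8 uncultured lists and of neither cultured list. Trp63, the p63 transcription factor gene of stratified epithelium, held 9 regions in the cultured control list and 18 in the vehicle list.

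Of the 18 basal layer genes 13 had more lost than gained regions and 5 the reverse, against 44.8% and 20.7% of all genes with a region, with 43 of 161 cultured control regions gained (26.7%) and 113 of 229 vehicle regions lost (49.3%). Trp63 (6 gained, 20 lost), Cd44 (5 and 20), a hyaluronan receptor gene, and Bcl11b (4 and 12) had the largest surplus of lost regions. Itgb1, the beta-1 integrin of adhesion to matrix, had 4 gained and 2 lost, and Plec, a hemidesmosome linker, 3 and 1.

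Genes of the suprabasal and cornified layers had a larger share of lost regions than all regions together. Of the 217 vehicle regions at its 30 genes 141 were lost, which is 65.0% (58.4 to 71.0), and 26 of its 102 cultured control regions were gained (25.5%, 18.03 to 34.7). A surplus of lost regions was found at 26 of the 30 genes and a surplus of gained regions at 2, Sbsn and Alox12b, against 44.8% and 20.7% of all genes. Tgm3 had 1 gained and 20 lost regions, Cebpb, a differentiation factor, 0 and 15, and Calml3, an epidermal calmodulin-like gene, 2 and 10. Grhl1 had 1 and 8, Krt10 0 and 7, and Klk5 0 and 6. The promoter window was lost at 7 of the 24 members in the RefSeq table, against 3.75% of all 17492 genes in it. The 7 were Krt10, Tgm3, Tgm5, Cdsn, Krtdap, Klk5 and Klk7. The regions at Krt10 (4.87), Cdsn (4.76) and Klk7 (4.21) were among the weakest of the vehicle list, of which 67.3% were lost. Of the 7, only Klk5 and Krtdap lay under a region of all 8 uncultured lists. Sbsn and Casp14 had 3 shared regions each, and the 1 shared cluster of Krt10 ranked 57.5 points higher in culture. The share of lost regions stood between 17.2 and 19.9 points above that of all regions under each of 6 other settings.

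The 15 genes of the upper follicle, from which the sorted cells come, had 26 of 79 cultured control regions gained (32.9%) and 58 of 112 vehicle regions lost (51.8%). Lrig1 and Plet1, markers of the upper follicle and isthmus, had more gained than lost regions, 8 and 3 at Lrig1 and 6 and 3 at Plet1. Gata6, a factor of the sebaceous duct lineage, had 1 gained and 10 lost regions, and Lgr6 2 and 9. Krt79, a keratin of the infundibulum, had 3 lost regions and Defb6, a beta-defensin gene, 2, with none gained at either. The promoter window was lost at 4 of the 8 members in the RefSeq table, Lgr6, Krt79, Defb6 and Teddm3, and gained at none, against 3.75% lost and 1.72% gained of all 17492 genes.

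Bulge and lower follicle genes had 37 of 147 cultured control regions gained (25.2%, 18.8 to 32.8) and 133 of 241 vehicle regions lost (55.2%, 48.9 to 61.3). At 18 of the 20 genes there were more lost than gained regions, against 44.8% of all genes with a region. Tcf7l1 and Tcf7l2, DNA-binding partners of beta-catenin, had 0 gained and 12 lost and 4 gained and 18 lost regions. Barx2, a homeobox gene, had 15 lost regions and none gained, although 1 of its shared clusters ranked 70.4 points higher in culture. Sox9, a follicle stem cell factor, had 1 gained and 6 lost regions, and a shared cluster of it had a rank difference of -66.3 points. Msx2, a homeobox gene of the hair matrix, was 1 of the 2 exceptions, with 4 gained and none lost. Sebaceous lipid genes stood near the background, with 24 of 74 gained (32.4%) and 41 of 93 lost (44.1%).

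Wound and stress keratinocyte genes did not stand apart from all regions, with 15 of 56 cultured control regions gained (26.8%) and 32 of 73 vehicle regions lost (43.8%). The prostaglandin synthase gene Ptgs2 had 8 gained, 2 lost and 12 shared regions, and Cxcl14, a chemokine gene of resting epidermis, had 11 lost and none gained. The stress keratin genes Krt16 and Krt17 had shared regions only. The simple epithelial list was small, with 9 of 29 gained (31.0%) and 16 of 36 lost (44.4%). Within it Krt8 had 1 gained and no lost region and Krt18 3 and 0, while Krt7 and Elf3, an epithelial ETS factor gene, had 4 lost regions each and none gained. Promoter windows were gained at 3 of its 10 members in the RefSeq table, Krt8, Krt18 and Cldn7, against 1.72% of all 17492 genes. The regions at Krt8 (5.08) and Cldn7 (4.31) were among the weakest of the cultured control list, of which 45.2% were gained.

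Migration and matrix genes had a larger share of gained regions than all regions together. Of 150 cultured control regions at these 24 genes 67 were gained, which is 44.7% (36.9 to 52.7), and 62 of 146 vehicle regions were lost (42.5%, 34.7 to 50.6). At 13 genes gained regions outnumbered lost ones and at 7 the reverse held, against 20.7% and 44.8% of all genes. Tnc, which encodes the wound matrix protein tenascin C, had 11 gained and 7 lost regions, and Col4a2, a basement membrane collagen gene, 8 and 2. Fn1, the fibronectin gene, had 4 gained and 1 lost region and no shared one. Mmp13 had 5 gained regions and Mmp10 3, with none lost at either. Itgb5, an integrin gene, and Thbs1, the thrombospondin gene, went the other way with 2 gained and 9 lost and 4 gained and 8 lost regions. Of the 150 regions 35 (23.3%) were in both cultured lists and no uncultured list, against 14.7% of all regions of the cultured control list. Promoter windows did not lean to 1 side. Of the 19 members with a RefSeq window, 3 had it gained (15.8%), Mmp10, Mmp13 and Timp1. Another 3 had it lost (15.8%), Itgb5, Col4a1 and Col4a2. Of all 17492 genes 1.72% had a gained and 3.75% a lost window. Col4a2 thus had a lost window beside its surplus of gained regions.

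Targets of Yap and Tead, which respond to cell spreading, stood near the background at 40 of 130 gained (30.8%) and 74 of 162 lost (45.7%). Ankrd1 had 2 gained regions and none lost, and Nt5e, the CD73 gene, 6 and 4, while Ptpn14 had 3 and 12 and Crim1 5 and 14. Regulators of the epithelial to mesenchymal transition also stood near it, at 18 of 63 (28.6%) and 38 of 85 (44.7%). Cdh1, the E-cadherin gene, had 6 lost and 8 shared regions and Esrp1, an epithelial splicing factor gene, 9 and 5, with none gained at either. Snai1 and Snai2 had 1 gained region each and none lost.

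Among the signalling lists, shares of AP-1 and immediate early genes were low in both directions. Of their 131 cultured control regions 27 were gained (20.6%, 14.6 to 28.3) and of their 166 vehicle regions 63 were lost (38.0%, 30.9 to 45.5). Junb, an AP-1 subunit gene, had 3 shared regions and no other, Fos had 2 gained and 7 lost and Jun 5 and 7, and Fosl2 7 lost and none gained. With both lists limited to the same number of regions, the gained share of this list stood 0.930 points above that of all regions instead of at -10.6 points. Genes of the EGF receptor pathway had 28 of 128 gained (21.9%, 15.6 to 29.8) and 67 of 167 lost (40.1%). Spred2, an inhibitor of Ras signalling, had 3 gained and 14 lost regions, and Btc, the betacellulin gene, 3 and 1.

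The Wnt list had one of the larger lost shares, 126 of 232 vehicle regions (54.3%, 47.9 to 60.6), beside 38 of 141 cultured control regions gained (26.95%). Lost regions outnumbered gained ones at 24 of its 26 genes, against 44.8% of all genes. Ror2, a Wnt5a receptor gene, had 1 gained and 14 lost, Znrf3, a ubiquitin ligase gene that removes Wnt receptors, 1 and 11, and Lef1 5 and 11. Wnt7a was the only member with more gained than lost regions, 5 and 2. For TGF-beta the counts were 44 of 167 gained (26.3%) and 98 of 222 lost (44.1%), and for Notch 31 of 116 (26.7%) and 81 of 166 (48.8%). Smad3, the signal transducer of TGF-beta, had 8 gained and 5 lost regions, and a shared cluster of it had a rank difference of -78.4 points. Tgfbr3, a co-receptor gene, had 1 and 12, and Maml3, a Notch coactivator gene, 2 and 24.

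Senescence and p53 response genes had 56 of 135 cultured control regions gained (41.5%, 33.5 to 49.9) and 58 of 136 vehicle regions lost (42.6%, 34.6 to 51.0). Gained regions outnumbered lost ones at 8 of the 23 and lost ones gained ones at 12, against 20.7% and 44.8% of all genes. Cdkn2a had 6 gained and 1 lost region, Pmaip1, the Noxa gene, 7 and 2, Plk2, a p53-induced kinase gene, 7 and 4, and Gadd45a, a growth arrest gene, 5 and 2. Cdkn1a, the p21 gene, had 1 gained, 2 lost and 3 shared regions. With the strongest 50% of each list set against the whole other list, the gained share relative to all regions was -2.09 points instead of 10.3. The cell cycle list stood near the background at 19 of 77 (24.7%) and 43 of 99 (43.4%). Cdk6 had 5 gained and 11 lost regions and the proliferation marker gene Mki67 3 and 5. Of the replication and mitosis genes Mcm2, Top2a and Plk1 had 1 shared region each and no other, while Mcm5 had 1 gained and 2 lost regions.

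Clock genes and glucocorticoid targets had a low gained share and a high lost share, 26 of 128 (20.3%, 14.3 to 28.1) and 125 of 229 (54.6%, 48.1 to 60.9). Rora, a nuclear receptor gene of the clock, had 4 gained and 26 lost regions, and Zbtb16, a glucocorticoid-induced factor gene, 4 and 19. Arntl, the BMAL1 gene, and Npas2 had 1 and 11 each. Nr1d1, the REV-ERB alpha gene, had 4 shared regions only. With both lists limited to the same number of regions the gained share stood 4.24 points above that of all regions instead of at -10.9. Glycolysis and hypoxia genes had 23 of 115 gained (13.7% to 28.2%) and 60 of 149 lost (40.3%). Pfkfb3, a glycolytic activator gene, had 6 gained and 2 lost, and Egln3, a prolyl hydroxylase gene, 1 and 11.

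Cytokine and alarmin genes stood near the background, with 31 of 85 gained (36.5%) and 39 of 93 lost (41.9%). The interleukin-1 genes Il1a and Il1b had 3 gained regions each and none lost, Tnf 2 and 0, and Csf2, the GM-CSF gene, 4 and 1. The alarmin gene Il33 had 4 gained and 8 lost regions. Interferon and innate sensing genes had 28 of 91 (30.8%) and 58 of 121 (47.9%), with Nfkb1 at 3 and 15 and Tnfaip3, an inhibitor of NF-kappa B, at 8 and 6. The Hox genes had 14 of 53 (26.4%) and 35 of 75 (46.7%), and the other developmental regulators 32 of 97 (33.0%) and 71 of 136 (52.2%). Meis1, a Hox cofactor gene, had 3 gained and 13 lost regions.

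**Figure D5:**
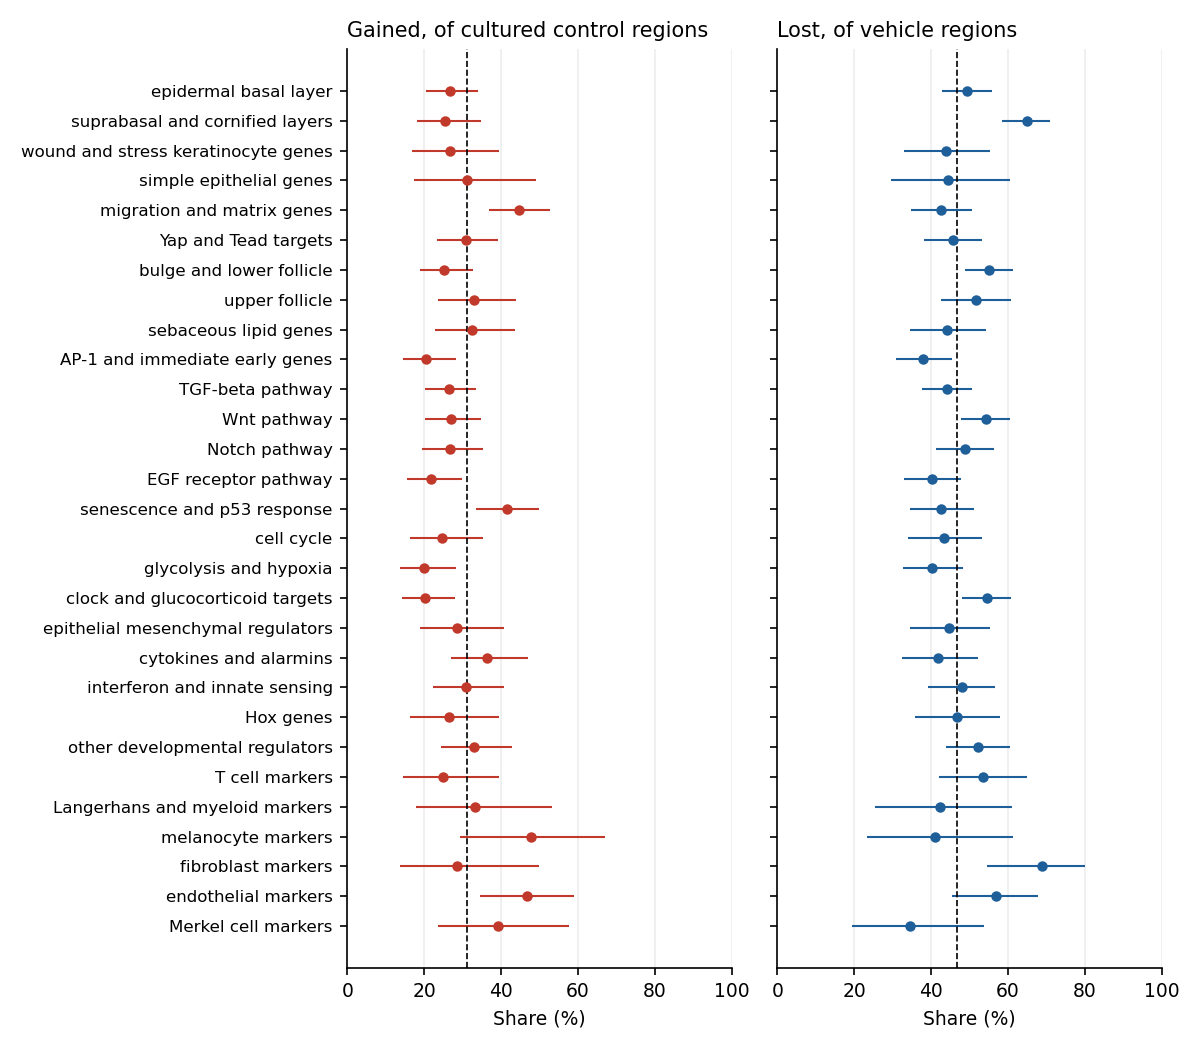
Share of cultured control regions gained (left) and of vehicle regions lost (right) for 29 gene lists, in percent; points are shares, lines Wilson 95% intervals and dashed lines the shares of all regions, 31.2% and 46.7%. Suprabasal and fibroblast genes stand furthest to the right on the lost side, at 65.0% and 68.8%. On the gained side melanocyte, endothelial and migration and matrix genes do, at 47.8%, 46.7% and 44.7%.

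Markers of other cell types were read in the same way, because a sorted fraction and a culture can hold different cells. Regions were present at 13 of 17 T cell genes in the cultured control list and 14 in the vehicle list, at 10 and 10 of 15 Langerhans and myeloid genes, 7 and 7 of 11 melanocyte genes, 11 and 11 of 13 fibroblast genes, 12 and 11 of 12 endothelial genes and 6 and 8 of 8 Merkel cell genes. Genes with no region in either list included Cd3d and Cd3g for T cells and Itgax, Fcer1g, Tyrobp and Lyz2 for myeloid cells. Kit, Tyr and Ednrb for melanocytes, and Col1a2 and Lum for fibroblasts, were also among them. Other markers of these cells had shared regions, among them Cd247, Lck and Zap70, Cd74 and H2-Aa, Pmel and Mlana, and Col1a1. Promoter windows lay under a region of both lists at 4 of 10 Langerhans and myeloid genes and 1 of 6 melanocyte genes. They did so at 0 of 11 T cell genes and 0 of 8 fibroblast genes, against 9224 of all 17492 genes. Fibroblast genes had 6 of 21 cultured control regions gained (28.6%) and 33 of 48 vehicle regions lost (68.8%, 54.7 to 80.1), led by Col5a1 with 1 and 8 and Dpp4 with 0 and 8. Endothelial genes had 28 of 60 gained (46.7%, 34.6 to 59.1) and 41 of 72 lost (56.9%, 45.4 to 67.7). Flt1, a receptor gene for vascular growth factors, had 11 gained and 3 lost regions and Kdr 4 and 1, while Erg had 2 and 9. T cell genes had 11 of 44 gained and 37 of 69 lost (53.6%), with Thy1 at 0 and 7. Bcl11b, at 4 and 12, is in both the T cell and the basal list. Melanocyte genes had 11 of 23 (47.8%) and 9 of 22 (40.9%), and Merkel cell genes 11 of 28 (39.3%) and 9 of 26 (34.6%). Shared clusters had a median rank difference of -17.0 points at Langerhans and myeloid genes and -9.17 at T cell genes, against -0.125 over all shared clusters. The part of such cells in the differences at epidermal genes was not tested.

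Y-linked genes differed as well. Ddx3y, Uty and Eif2s3y had regions in the cultured control list, with signal values at their ends of 23.3, 18.001 and 18.3. They had none in the vehicle list, and Kdm5d had none in either. The promoter windows of Ddx3y, Uty and Eif2s3y were also in the cultured distal list and in some uncultured lists. These were wound and UVB, and 1 week after the first and after the second wound. The X-linked Xist had 0 regions inside the gene in the cultured control list and 2 in the vehicle list. The labels give no sex. The share of gained regions over the autosomes alone was 31.2% and that of lost regions 46.6%.

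In all, the interval of the gained share lay above that of all regions for 3 of 29 lists, below it for 4 and held it for 22. For the lost share 5 lay above, 1 below and 23 held it. The lists were chosen with earlier results of these data known, so these counts are a description only. 

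Regions found in both cultured lists and no uncultured list numbered 7942 of 54188 (14.7%), and regions of all 8 uncultured lists found in neither cultured list numbered 5231 of 70008 (7.47%). Their summits were within 1 kb of a gene start for 3.25% and 3.46%, and their median signal values were 9.55 and 12.0. Among list members Flt1 had 9 of the culture-only regions, Maml2, Tnc and Piezo2 6 each, and Ptgs2, Nt5e, Col4a2, Plk2 and Tgfb2 5 each. Cdkn2a, Lrig1, Runx1 and 8 other members had 4. Nfatc1 had 9 of the tissue-only regions, Thbs1, Rora, Nfkb1 and Arntl 5 each, and Tcf7l1, Tcf7l2, Zbtb16, Cd44, Itgb5, Crim1 and Ror1 4 each. The promoter table holds 412 list members, of which 6 had a window gained in both cultured lists and open in no uncultured list, Cdkn2a, Hoxa13, Kdr, Krt8, Timp1 and Tlx3, against 0.68% of all 17492 genes. Another 8 had a window open in all 8 uncultured lists and in neither cultured list, Car9, Defb6, Il33, Klk5, Krt5, Krtdap, Scd3 and Tef, against 0.497% of all genes.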

How the data were processed

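ATAC-seq peak lists, 1 per group, were used as deposited; the labels name them conservative peaks of an IDR step, which keeps peaks that replicates share. Per the submitters' processing notes coordinates are on mm10. Neither an aligner nor a peak caller is named, and library depth is not given in the sources used. Each peak has an integer score (at least 540 in each list), a signal value and a −log10 p, all computed by the authors, and the deposited lists also give the summit as an offset from the peak start. The smallest −log10 p in the deposited lists was 2.00.

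From these files, overlapping peaks were merged into regions, each with the signal value and summit of its strongest peak and its highest −log10 p, and the lists were compared by an overlap of at least 1 bp. Percentile ranks of the signal value were taken within shared clusters. Starts came from the RefSeq promoter table for 17492 of 21887 protein-coding genes (21263 windows), and both ends of the gene stood in for a start at the other 4395. A region was assigned to the shortest gene around its summit, or else to the nearest gene end within 100 kb. The text names the 10 genes with the largest surplus of gained and of lost regions, the 6 strongest gained and lost regions, the same near starts, the 6 highest and 6 lowest rank differences near starts, and members of the gene lists, leaving out predicted gene models (Gm and Rik names) except among the strongest regions. The members and lists were chosen with earlier results of these data known, and the printed promoters, the culture-only and tissue-only sets and the gene families after values were seen. Of 584 list genes 581 were found.

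Replicate numbers pair no samples, and nothing in the labels says that libraries came from separate animals or cultures. Python 3.11.15 was used with numpy 2.4.6, pandas 2.3.3, scipy 1.17.1 and matplotlib 3.10.9, and overlaps were checked with bedtools 2.31.1. On a simulated list made from the vehicle list of 70008 regions, 3000 of 3000 removed, 5000 of 5000 added and 200 of 200 re-ranked regions were recovered. Alternatives covered the overlap, the size and strength of the lists, the other cultured and uncultured controls, the window around starts, the distance to genes, the ranking value, merging and the sex chromosomes, the last chosen after seeing the data.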

Additional observations from a re-analysis of the deposited data

How the results depend on the processing

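No paired analysis was possible because each deposited list combines both libraries of its group and no test was made; for the same reason leaving out each replicate could not be run. The depth of the libraries is not known, so a region absent from a list may lie below the threshold of that list. With the strongest 50% of each list there were 9401 gained regions (34.7%), 17319 lost (49.5%) and 17657 shared clusters, and set against the whole other list 5986 (22.1%) and 11232 (32.1%). With homeostasis in place of vehicle, 28725 regions were gained (53.01%) and 9604 lost (27.3%), so the larger of both shares depends on the list chosen. The shares of gained and lost regions were 37.1% and 51.3% at an overlap of 50%, 40.3% and 40.8% with both lists limited to the same number of regions, 27.1% and 52.3% with the cultured distal list, and 24.4% and 39.9% for single peaks. Near a start lay 2.98% of gained, 3.41% of lost and 27.7% of shared regions within 500 bp, and 8.35%, 4.14% and 32.8% with lists of the same number. At an overlap of 50% the cultured distal list held 60.0% of gained regions and PRT4165 75.6% of lost regions. Spearman's rho over all shared clusters stayed between 0.644 and 0.690; ranked by −log10 p it was 0.848 near starts and 0.494 away from them.

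With lists of the same number the gained share relative to all regions turned to 0.930 points at AP-1 genes and 4.24 at clock genes, with the strongest 50% against the whole other list to -2.09 at senescence genes, and with homeostasis in place of vehicle the surplus of gained over lost regions turned to 15 at Macrod2 and 7 at Pard3. The cause was not tested. The lost share of suprabasal genes stayed 17.2 to 19.9 points above that of all regions, and the gained share of migration and matrix genes 9.47 to 15.04 points above it.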

Other observations

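Gene families and clusters outside the lists, chosen after values were seen, were counted in the same way, and only some are given. They are read against 31.2% gained and 46.7% lost of all regions. At Adamts genes, which encode secreted metalloproteases, 46 of 79 cultured control regions were gained (58.2%, 47.2 to 68.5) and 58 of 91 vehicle regions lost (63.7%). Transglutaminase genes had 6 of 12 gained and 30 of 36 lost (83.3%, 68.1 to 92.1), and keratin genes 16 of 69 gained (23.2%) and 69 of 122 lost (56.6%). Collagen genes had 69 of 159 gained (43.4%) and 113 of 203 lost (55.7%). Olfactory and vomeronasal receptor genes, silent in most tissues, had 75 of 130 gained (57.7%) and 46 of 100 lost (46.0%). Zinc finger genes named Zfp had 186 of 808 gained (23.0%) and 294 of 910 lost (32.3%). Of the families in the epidermal differentiation complex, S100a genes had 11 of 49 gained and 13 of 55 lost (23.6%). Lce genes had 5 of 16 gained and 7 of 19 lost (36.8%), and Sprr genes 11 of 21 gained and 12 of 23 lost (52.2%).

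Both clusters of Serpinb protease inhibitor genes ran in opposite directions. The cluster on chromosome 1 had 5 of 21 cultured control regions gained (23.8%) and 48 of 64 vehicle regions lost (63.2% to 84.0%). That on chromosome 13 had 17 of 32 gained (53.1%, 36.5 to 69.1) and 5 of 20 lost (11.2% to 46.9%). The type I keratin cluster had 10 of 30 gained and 36 of 57 lost (63.2%), and the type II cluster 10 of 42 and 32 of 63 (50.8%). The epidermal differentiation complex, which holds loricrin and filaggrin genes, had 39 of 122 gained (32.0%) and 63 of 151 lost (41.7%, 34.2 to 49.7). Its lost share was thus not above the 46.7% of all regions, unlike that of the suprabasal list. The kallikrein cluster had 4 of 19 gained and 19 of 33 lost (57.6%). In the matrix metalloproteinase cluster 7 of 14 cultured control regions were gained and 2 of 8 vehicle regions lost. The whole Mmp family had 19 of 51 gained (37.3%, 25.3 to 51.0) and 18 of 48 lost (37.5%, 25.2 to 51.6).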
